A study of Mus musculus with 3 samples.

Results

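Smooth muscle cells of the lung were described in 3 single-cell RNA libraries, where 711 of 19899 kept barcodes met a fixed marker rule. A barcode is the tag shared by all molecules captured with 1 cell. Barcodes were kept if they carried at least 1000 unique molecular identifiers (UMIs, each standing for 1 captured transcript) over at least 200 genes, with mitochondrial genes below 25% of them. A smooth muscle barcode held at least 4 UMIs over Myh11, Cnn1, Actg2 and Lmod1 together, at least 5 UMIs of Acta2, no UMI of the endothelial genes Cdh5 and Cldn5, no UMI of Hhip, and under 5% of its UMIs on the surfactant gene Sftpc. The values of these 9 genes therefore chose the members and are given as descriptions only.

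All 3 libraries came from lungs of MMTV-HER2/Neu mice of the FvB strain, in which a HER2/Neu oncogene is driven by a mammary tumour virus promoter active mainly in mammary epithelium. Lung cells lacking the leukocyte antigen CD45 were sorted by HER2 and captured with 10x Chromium 3′ v3 chemistry. The early HER2-negative library came from mice of 14 to 18 weeks without a palpable tumour, and the labels call its cells non-cancer lung cells. The early HER2-positive library came from mice of the same age and state, and the late HER2-positive library from mice older than 20 weeks that bore primary tumours; the labels call both breast cancer cells. Each group is 1 library, and how many mice went into it is not given in the sources used here. Stage, age, animals and library cannot be told apart between the HER2-positive libraries, nor sort gate and library between the early libraries, so no test between libraries was made.

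Vascular and airway smooth muscle cells surround the vessels and bronchi of the lung and set their calibre. Force comes from actin filaments and smooth muscle myosin, and phosphorylation of the myosin light chain by its calcium-dependent kinase starts contraction. Myocardin, acting with serum response factor at a DNA element named the CArG box, drives many of the contractile genes, and pericytes are the related mural cells of capillaries.

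The start-site windows of contractile genes were read first, since the CArG box is the element best known from this gene programme. RefSeq windows on GRCm38.p6, from 250 bases before to 50 bases after a gene's start, were used for 19 of 23 contractile genes. Only the 250 bases before the start were searched for motifs, in listed genes and in all windows alike. Of the 19 genes, 2 (Myl6 and Myl9) held a CArG box on either strand. No window was used for Actg2, Tagln, Myh11 and Rock1, nor for Egr1, Egr3, Ier2 and Myc of the immediate early list. Of all 32851 windows of that length, 482 (1.47%) held one. Among 22 matched genes of the cytoskeleton and adhesion list, 3 held one, namely Vcl (vinculin, which ties actin to adhesion sites), Dmd (dystrophin) and Fermt2 (kindlin-2). A listed gene counted if any of its windows held the box, so list shares and the share of all windows are in unlike units. The box was also in 2 of 18 immediate early genes (Egr2 and Zfp36) and in 0 of 14 clock genes. Among genes with a window, the contractile share was close to that of the immediate early list. Cardiac actin, Actc1, held a CArG box as well. The stretches below are printed from 5′ to 3′ on the gene's strand, with the CArG box in capitals, because these genes were among those the smooth muscle barcodes carried. The regions are chr2:156775273-156775342 on the plus strand, chr14:20929148-20929210 on the plus strand and chr2:114052883-114052952 on the minus strand.
Myl9: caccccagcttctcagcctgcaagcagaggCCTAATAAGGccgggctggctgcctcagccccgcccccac
Vcl: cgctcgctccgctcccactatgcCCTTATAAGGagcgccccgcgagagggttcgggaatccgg
Actc1: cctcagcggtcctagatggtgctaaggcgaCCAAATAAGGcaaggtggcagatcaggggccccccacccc
A match is a description of the letters, and a window without one says only that these letters were not in its 250 bases before the start.

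The early HER2-negative library held 38 smooth muscle barcodes of 6270 kept (0.606%, 95% Clopper-Pearson interval 0.429 to 0.831%). The early HER2-positive library held 456 of 7622 (5.98%, 5.46 to 6.54%) and the late HER2-positive library 217 of 6007 (3.61%, 3.15 to 4.12%). The early libraries differ in sort gate, which can set such shares, and the HER2-positive libraries share a gate. Intervals cover counting error only, here and throughout. Median depth was 4970, 4065 and 5235 UMIs per barcode in the order HER2-negative, early HER2-positive, late HER2-positive, an order kept for every set of 3 values below. Median detected genes were 2104, 1927 and 2243, and median mitochondrial shares 3.93%, 4.65% and 5.42%. Summed over members, 187994, 2027680 and 1273257 UMIs were available, so values of the HER2-negative library are the least precise. No member's barcode sequence occurred among the members of another library, while 18, 13 and 10 kept barcodes were shared by the pairs of libraries.

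The rule's limits divided a continuous range. Members with exactly 4 UMIs over the 4 smooth muscle genes numbered 3, 21 and 10, and 0, 24 and 8 barcodes with 3 UMIs met every other limit. Members with 5 Acta2 UMIs numbered 0, 8 and 4, against 1, 15 and 2 barcodes just outside with 4. A single UMI of Cdh5 or Cldn5 kept out 3, 33 and 9 barcodes that otherwise passed, and Hhip kept out 11, 12 and 3. Sftpc of 5% or more kept out 2, 136 and 9; the highest share inside was 0.0210%, 4.96% and 1.33%, and the lowest outside 10.7%, 6.05% and 11.2%.

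Contractile genes that the rule did not use were also high in the members. Levels are CPM, the gene's UMIs summed over members, divided by all their UMIs and multiplied by 1000000; since 3′ counting is not scaled by length, levels are compared between libraries and not between genes. Tagln, the actin-bundling protein transgelin (ENSMUSG00000032085, chr9:45929619-45936058 on GRCm38), stood at 7229, 8911 and 9697 CPM, and its level over all other kept barcodes was 83.4, 252 and 41.6 CPM. Tpm2, beta-tropomyosin, stood at 3208, 4697 and 4917 against 32.3, 138 and 31.1 CPM, and Myl9, the regulatory myosin light chain, at 2484, 2645 and 2679.7 against 20.6, 83.9 and 24.0 CPM. After thinning each barcode to 1000 UMIs, Tagln was found in 94.7%, 98.5% and 95.4% of members and in 0.425%, 1.81% and 1.68% of endothelial barcodes, which should lack it. Endothelial barcodes had median depths of 3032, 3718 and 5362.5 UMIs before thinning. The intermediate filament gene Des was found in 63.2%, 83.1% and 80.2% of members against 0.328%, 2.08% and 2.31% of endothelial barcodes. Both genes were thus found in a far larger share of members than of endothelial barcodes. Endothelial barcodes were themselves defined by markers, and such a choice can leave out barcodes that carry smooth muscle RNA. Their shares therefore do not measure the level of free RNA, and its part in the members was not tested by this comparison.

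Among genes outside the rule, 20 had the highest ratios of members over all other kept barcodes in every library, a description since the members were chosen by their genes. Besides Tagln, Tpm2 and Myl9 these included Actc1, the cardiac form of alpha-actin (ENSMUSG00000068614, chr2:114047282-114053548), at 915, 1113 and 1395 CPM against 5.53, 22.7 and 2.85 CPM elsewhere. Myocd, the coactivator myocardin, stood at 101, 128 and 163 CPM against 1.29, 3.67 and 0.442 CPM. The matrix protein gene Nov was at 176, 271 and 309 against 2.32, 3.72 and 1.16 CPM, and the metalloproteinase inhibitor gene Timp4 at 159.6, 161 and 169.6 against 0.669, 2.35 and 0.301 CPM. Npy1r, a receptor for neuropeptide Y, stood at 186, 192 and 205 against 1.96, 3.81 and 0.824 CPM. Ntrk3, the neurotrophin-3 receptor, was at 144, 118 and 123 against 1.78, 4.16 and 0.482 CPM. The remaining genes were Plin4, Map3k7cl, Fbxl22, Scube3, Ctnna3, Aoc3, Hspb7, Gpc6, Ldb3, Id4 and Mrvi1, and their levels in members lay within 1.5-fold of each other between the HER2-positive libraries. Pericyte barcodes, defined by pericyte genes and at most 1 UMI of the 4 smooth muscle genes, carried Actc1 at 0, 1.87 and 1.52 CPM and Myocd at 0, 1.25 and 0.506 CPM.

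The contractile apparatus was at near-equal levels in smooth muscle barcodes of both HER2-positive libraries. Ratios below are early over late HER2-positive with a 95% exact conditional interval, and a gene was called higher or lower past 1.5-fold, among genes with at least 50 counts in the pair. Of all 7368 genes so tested, 5.70% were called higher and 3.56% lower in the early library, with a median log2 ratio of 0.03. None of the 7 thin-filament genes outside the rule was called in either direction, with a median log2 ratio of -0.07, and none of the 11 genes of myosin and its control, with a median of -0.03. Tagln had a ratio of 0.919 (0.898 to 0.940), Tpm2 0.955 (0.925 to 0.986), Tpm1 1.03 (0.982 to 1.08) and Cald1, the actin-binding caldesmon, 1.02 (0.969 to 1.08). The lowest ratios in these lists were those of Rock1, a kinase that sustains contraction, at 0.813 (0.750 to 0.882) and Rock2 at 0.820 (0.755 to 0.891), and the highest was that of Rhoa, the small GTPase that activates both, at 1.12 (1.01 to 1.23). Myosin light chain kinase, Mylk, stood at 1362, 1742 and 1835 CPM, and its substrate Myl9 had a ratio of 0.987 (0.945 to 1.03). Myl6, the essential light chain, stood at 5447, 6395 and 6511 CPM, Flna at 1170.2, 1372 and 1553 CPM and Actn1 at 319, 440.4 and 489 CPM. The other members, Tpm4, Myh10, Ppp1r12a, Ppp1r12b, Ppp1r14a and Smtn, had ratios between 0.862 and 1.11. Of the genes that chose the members, Acta2 was at 9016, 11616 and 11683 CPM, Myh11 at 2473, 3449.8 and 4064 CPM, Actg2 at 579.8, 1006 and 993 CPM, Cnn1 at 436, 539 and 563 CPM and Lmod1 at 1213, 1040.1 and 1052 CPM.

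**Figure D1:**
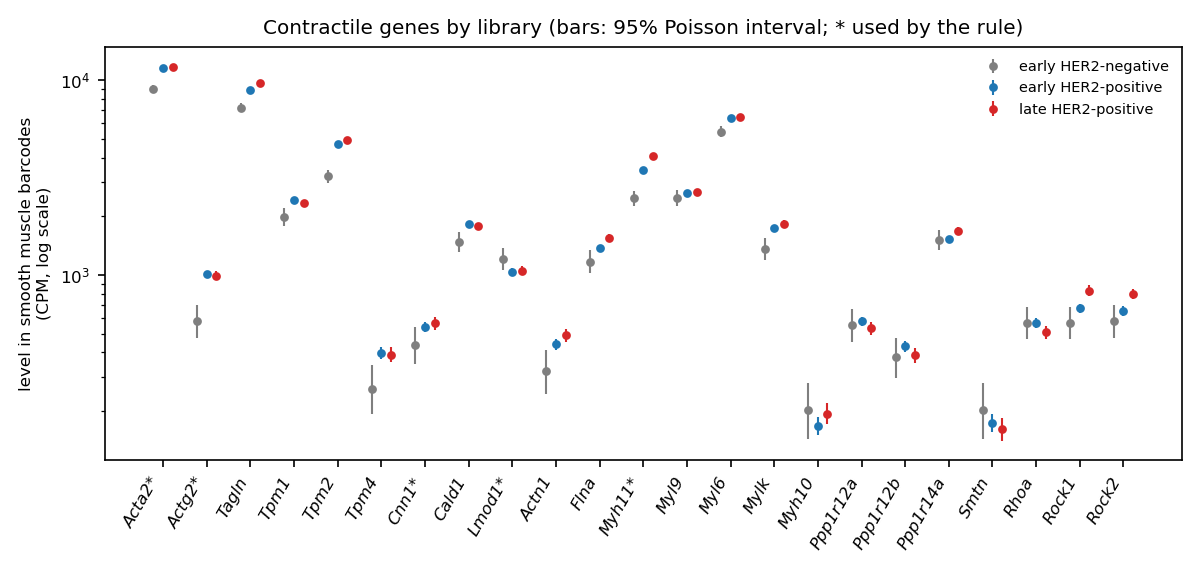
Level of each contractile gene (CPM over smooth muscle barcodes, log axis) in the 3 libraries, with 95% Poisson intervals as bars and genes used by the rule marked by an asterisk. The 2 HER2-positive libraries lie nearly on top of each other, Tagln at 8911 and 9697 CPM, and the HER2-negative library is lower for most thin-filament genes.

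Calls of contractile genes in the HER2-negative members did not exceed the share over all genes. Compared with the early HER2-positive library, 10.7% of 6056 tested genes were called higher in the HER2-negative library and 17.1% lower, which is the background for its 38 barcodes. Of the thin-filament genes outside the rule, 0 of 7 were called higher and 1 lower, with a median log2 ratio of -0.30 against -0.04 over all tested genes. That gene was Tpm4, with levels of 261, 398 and 389.6 CPM and a HER2-negative over early HER2-positive ratio of 0.654 (0.480 to 0.873). Tpm2 had a ratio of 0.683 (0.628 to 0.742) and Tagln one of 0.811 (0.767 to 0.857). In the myosin list 0 of 11 were called, with a median of -0.09, so neither list exceeded the background in calls. Contractile genes outside the rule made up 2.41%, 3.37% and 3.50% of UMIs in the median member. The quartiles were 1.497 and 3.39%, 2.32 and 4.48%, and 2.09 and 4.82%, so the libraries overlapped widely cell by cell.

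Genes that join the contractile filaments to membrane and matrix also kept their levels between the HER2-positive libraries. None of 25 tested genes of the cytoskeleton and adhesion list was called, with a median log2 ratio of -0.06. Des stood at 1298, 2190.2 and 2290.2 CPM, Vim at 1670.3, 1742 and 1678 CPM, the actin-severing destrin gene Dstn at 1319, 1482 and 1416 CPM and the LIM protein gene Csrp1 at 936, 1439 and 1234 CPM. Des was 0.593 (0.519 to 0.674) in the HER2-negative over the early HER2-positive library and Csrp1 0.651 (0.556 to 0.758), both past 1.5-fold lower. In all 4 of the 25 genes were called lower there, near the background of 17.1%. The nearest to the fold between stages were Pdlim3, at 1.47 (1.06 to 2.07), and the sarcoglycan gene Sgcd, at 0.687 (0.530 to 0.890).

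Calcium handling and receptors for constrictors gave 1 call each, beside 5.70% of all genes called higher and 3.56% lower in the early library. Of 11 tested calcium and ion channel genes, 1 was called higher in the early library, Kcnj8, a subunit of the ATP-sensitive potassium channel that is also a pericyte marker, at 37.2, 30.1 and 18.1 CPM and a ratio of 1.67 (1.02 to 2.82). The L-type calcium channel gene Cacna1c stood at 154, 178 and 166 CPM, the inositol trisphosphate receptor gene Itpr1 at 117, 157 and 186 CPM and the calcium pump gene Atp2a2 at 351, 392 and 456 CPM. The cardiac ryanodine receptor gene Ryr2, Ryr3, Pln and Casq2 were listed at 0 in the HER2-negative members. Of 8 tested constrictor receptors 1 was called lower in the early library, Chrm2, the M2 muscarinic receptor, at 5.32, 11.3 and 26.7 CPM with a ratio of 0.425 (0.239 to 0.742). Among the 107 and 33 barcodes with under 3 UMIs of every other cell type's list, the directions of both calls turned at very low counts, to log2 ratios of -0.20 for Kcnj8 (6 and 3 counts) and 0.020 for Chrm2 (7 and 3 counts). Endothelin receptor type A, Ednra, stood at 261, 225 and 258 CPM and had a ratio of 0.870 (0.754 to 1.01), and its type B partner Ednrb stood at 170.2, 71.0 and 68.3 CPM. The HER2-negative over early HER2-positive ratio of Ednrb was 2.40 (1.58 to 3.54). S1pr3, a receptor for sphingosine-1-phosphate, was at 58.5, 81.9 and 82.5 CPM and P2rx1, an ATP-gated channel, at 37.2, 49.8 and 58.1 CPM.

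The nitric oxide pathway, by which endothelium relaxes smooth muscle, was carried in every library. Gucy1a3 and Gucy1b3, the subunits of soluble guanylate cyclase, stood at 1851, 1265 and 1205 and 697, 756 and 690.4 CPM. Pde5a, which breaks down the cyclic GMP made by that enzyme, stood at 521, 366 and 420.2 CPM. Ratios of early over late were 1.05 (0.985 to 1.12), 1.09 (1.01 to 1.19) and 0.871 (0.778 to 0.975). Of 12 tested genes of relaxation signalling 1 was called lower, beside 3.56% of all genes. It was the prostaglandin E2 receptor gene Ptger2, at 0, 12.3 and 21.2 CPM. Npr3, the clearance receptor for natriuretic peptides, had a ratio of 0.668 (0.527 to 0.848).

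Of 20 tested genes of the list of smooth muscle gene regulators, 1 was called in each direction between stages, beside 5.70% higher and 3.56% lower of all genes. Their median log2 ratio was -0.04. Myocd had a ratio of 0.782 (0.649 to 0.943), Nr2f2, a nuclear receptor of venous and mesenchymal identity, 0.869 (0.789 to 0.958), and the T-box gene Tbx2 0.972 (0.857 to 1.10). Klf4, a factor tied to loss of contractile genes in vessel injury, was the gene called higher, at 69.2, 76.4 and 35.3 CPM and a ratio of 2.16 (1.54 to 3.09). Tcf21, a mesenchymal factor of lung fibroblasts (ENSMUSG00000045680, chr10:22817281-22820174), was the gene called lower. Its levels were 37.2, 27.1 and 90.3 CPM and its ratio 0.300 (0.214 to 0.418), the lowest of any gene whose counts were spread over cells (at most 10% of the pair's counts in 1 cell). Tcf21 was found in 0%, 3.73% and 11.5% of thinned members, with intervals of 2.19 to 5.90% in the early and 7.60 to 16.5% in the late HER2-positive library, and in 0.444%, 0.469% and 0.840% of endothelial barcodes. The 9 listed fibroblast markers, of which Tcf21 is one, summed to 1670, 851 and 881 CPM, and the other 8 to 1633, 824 and 791 CPM, slightly higher in the early library, the reverse of Tcf21. Dcn, Pi16 and Lum were listed at 0 in the late library. Among barcodes with under 3 UMIs of every other cell type's list, 107 and 33 barcodes, the log2 ratio of Tcf21 was 0.12 in place of -1.74, from 10 and 4 counts. The part of fibroblast RNA in this difference was not tested.

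Calls in signalling pathways that shape vascular and airway muscle stand beside 5.70% of all genes called higher and 3.56% lower in the early library. In lists this short 1 gene sets the share, so no list is read from it. Notch3, the receptor that maintains vascular smooth muscle and pericytes, stood at 617, 752 and 713 CPM with a ratio of 1.05 (0.971 to 1.15), and its targets Heyl and Hey2 at 277, 225 and 255 and 58.5, 85.3 and 91.1 CPM. Notch2 was the 1 of 9 tested Notch genes called, lower in the early library at 63.8, 27.6 and 54.2 CPM and a ratio of 0.510 (0.352 to 0.736). In the Hedgehog and Wnt lists 1 of 5 was called, the R-spondin receptor gene Lgr6, a mark of airway smooth muscle, at 21.3, 12.8 and 21.99 CPM and a ratio of 0.583 (0.328 to 1.03), whose interval reaches past 1. Ptch1, the Hedgehog receptor and target, stood at 53.2, 70.0 and 78.5 CPM. Of 20 tested TGF-beta and BMP genes 1 was called in each direction, the lower being Smad6, an inhibitor of BMP signalling. Tgfb2, a ligand, stood at 223, 349.7 and 463 CPM and Id3, a BMP target, at 931, 997 and 1129 CPM.

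Mcam encodes a surface adhesion protein of vessel walls (ENSMUSG00000032135, chr9:44134469-44142727). It was the 1 of 9 tested vascular genes that was called, lower in the early library, beside 3.56% of all genes. It stood at 165, 206 and 412 CPM in the 3 libraries. The early over late ratio was 0.4997 (0.438 to 0.569), and the HER2-negative level was nearer to the early HER2-positive one. It was found in 10.5%, 18.9% and 36.9% of thinned members, with intervals of 15.4 to 22.8% in the early and 30.4 to 43.7% in the late HER2-positive library, and in 8.69%, 9.32% and 15.8% of endothelial barcodes. The highest single barcode held 1.20% of the early and 3.24% of the late counts. Endothelial genes other than those of the rule summed to 47.9, 36.0 and 14.9 CPM over 6 genes, highest where Mcam was lowest, and their part in the result was not tested.

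Matrix genes gave few calls between stages, 1 of 29 tested in each direction, beside 5.70% higher and 3.56% lower of all genes. Mgp, an inhibitor of calcification, stood at 3665, 1987 and 2159.8 CPM, Sparc at 1851, 2139 and 1988 CPM, Timp3 at 1649, 2269.6 and 1676 CPM and Sparcl1 at 1601, 1844 and 1783 CPM. Lox, which crosslinks collagen and elastin, was the gene called lower, at 31.9, 27.6 and 60.5 CPM and a ratio of 0.457 (0.318 to 0.653). Col1a1 stood at 399, 284 and 391 CPM, with a ratio of 0.726 (0.643 to 0.820). The gene called higher was Dcn, which was listed at 0 in the late library and had 85.6% of its early counts in 1 barcode. In the HER2-negative library 9 of 29 matrix genes were called higher than in the early HER2-positive library and 1 lower, beside the background of 10.7% and 17.1%. Mgp had a ratio of 1.84 (1.70 to 2.0002) there and fibronectin, Fn1, one of 2.47 (1.71 to 3.49). Basement membrane genes gave 0 calls of 10 between stages, with Col4a1 at 564, 542 and 648 CPM.

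Secreted growth factors and their binding proteins were led by Igfbp7 at 2521, 3031 and 3001 CPM, a ratio of 1.01 (0.970 to 1.05). The matricellular genes Ctgf and Cyr61 stood at 979, 934 and 1355 and 973, 982 and 935 CPM, with ratios of 0.689 (0.645 to 0.736) and 1.05 (0.977 to 1.13). Of 18 tested genes 3 were called higher in the early library and 1 lower, beside 5.70% and 3.56% of all genes. Igfbp4, which binds insulin-like growth factors, was at 229, 70.0 and 30.6 CPM with a ratio of 2.29 (1.59 to 3.35), and Igfbp3 at 106, 11.3 and 25.1 CPM with a ratio of 0.451 (0.252 to 0.796). Igfbp2 and Igfbp6, at 5.32, 134 and 38.5 and 0, 59.2 and 23.6 CPM, were held largely by few barcodes, with 85.7% and 56.7% of the late counts in 1 barcode. Cxcl12, a chemokine that retains CXCR4-bearing cells, stood at 90.4, 47.3 and 57.3 CPM and had a ratio of 0.826 (0.603 to 1.14). Cxcl1, a neutrophil attractant, stood at 21.3, 24.2 and 3.14 CPM and was found in 27 early against 4 late HER2-positive members.

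Immediate early genes, the first to be transcribed when a cell is stimulated, were higher in the early HER2-positive members than in the late ones. Of 20 tested, 8 were called higher and 0 lower, beside 5.70% and 3.56% of all genes, with a median log2 ratio of 0.48 against 0.03. The 8 were Atf3, Egr1, Ier2, Ier3, Dusp1, Klf2, Socs3 and Gadd45b. Atf3, a stress-induced transcription factor (ENSMUSG00000026628, chr1:191170296-191218039), stood at 787, 458 and 177 CPM, so the HER2-negative members were highest and the late members lowest. The HER2-negative over early log2 ratio of Atf3 turned to -0.083 among barcodes with under 3 UMIs of every other cell type's list. Its ratio was 2.59 (2.24 to 3.01). Found in 39.5%, 24.6% and 10.1% of thinned members, it was also found in 12.0%, 7.44% and 4.83% of endothelial barcodes. Egr1, a zinc-finger factor induced by growth signals, stood at 1463, 1194 and 664 CPM, with a ratio of 1.80 (1.66 to 1.95). The growth-arrest gene Gadd45b had a different order, at 42.6, 111 and 40.1 CPM, with a ratio of 2.78 (2.05 to 3.85), and Ier3 likewise at 122, 259.9 and 104 CPM, a ratio of 2.49 (2.05 to 3.03). Socs3, a feedback inhibitor of cytokine signalling, stood at 63.8, 122 and 67.5 CPM. The most abundant of the list moved less, Jun with a ratio of 1.45 (1.38 to 1.53), Jund 1.30 (1.23 to 1.36), Fos 1.25 (1.18 to 1.33) and Btg2 1.37 (1.29 to 1.47).

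The same list was higher in the early library outside smooth muscle as well. In pericyte barcodes 13 of 18 tested genes were called higher and 0 lower, beside 5.07% and 5.26% of all genes there, with a median log2 ratio of 0.89. Fos stood at 279.8 against 119 CPM, a ratio of 2.35 (2.01 to 2.77) in pericyte barcodes, against 1.25 in smooth muscle, and Socs3 at 48.6 against 12.6 CPM, a ratio of 3.85 (2.42 to 6.30). Ier3 had a ratio of 1.04 in pericyte against 2.49 in smooth muscle barcodes. Over all other kept barcodes 16 of 21 were called higher and 1 lower, beside 14.4% and 5.89%. The median mitochondrial share of smooth muscle barcodes was higher in the late library, by the values above, and its part in this result was not tested. Among the 107 and 33 smooth muscle barcodes with under 3 UMIs of every other cell type's list, 2 genes of the list were called higher in place of 8, and with at least 8 UMIs over the 4 smooth muscle genes 5 were.

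Clock genes were likewise higher in the early HER2-positive members. Of 11 tested, 6 were called higher in the early HER2-positive library and 0 lower, beside 5.70% and 3.56% of all genes. The median log2 ratio was 0.85, and all were at low counts. Dbp, an output gene that is driven through the E-box, stood at 31.9, 27.6 and 7.85 CPM, with a ratio of 3.52 (1.78 to 7.73). The other factors of the same bZIP family were Tef, at 42.6, 36.5 and 14.9 CPM and 2.45 (1.46 to 4.29), and Hlf, at 42.6, 40.9 and 33.8 CPM and 1.21 (0.829 to 1.79). The repressors Nr1d1 and Nr1d2 stood at 16.0, 78.9 and 42.4 and 26.6, 39.9 and 20.4 CPM, with ratios of 1.86 (1.36 to 2.58) and 1.96 (1.24 to 3.17). Per1 was at 37.2, 53.8 and 29.8 CPM and 1.80 (1.23 to 2.68), and Per3 at 21.3, 23.7 and 9.42 CPM and 2.51 (1.31 to 5.19). Of the activating arm, Clock was at 117, 90.3 and 99.0 CPM and 0.912 (0.723 to 1.15), and Arntl had 26.1 early against 35.3 late CPM, a ratio of 0.740 (0.487 to 1.13). Cry1 had a ratio of 0.682 (0.419 to 1.11), the lowest of the list. In the HER2-negative members Dbp, Tef and Per3 also stood above the late levels, and Nr1d1 was lowest of the 3 libraries. These levels rest on few counts, as 3 counts correspond to 16.0 CPM there. No HER2-negative over late ratio was taken, so no shared difference is read from them.

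The same clock genes were higher in the early library outside smooth muscle. Over all other kept barcodes 7 of 16 tested were called higher and 2 lower, beside 14.4% and 5.89% of all genes, with a median log2 ratio of 0.23. All 6 clock genes called in smooth muscle barcodes were past 1.5-fold there, with ratios of 2.98 for Dbp, 2.07 for Per3, 1.92 for Per1, 1.84 for Tef, 1.64 for Nr1d2 and 1.59 for Nr1d1. In pericyte barcodes 2 of 8 tested clock genes were called higher and 0 lower, beside 5.07% and 5.26%, with a median log2 ratio of 0.19, and Dbp, Tef and Per3 were not among the 8. Nr1d1 stood at 58.6 against 7.59 CPM, a ratio of 7.72 (4.45 to 14.3), and Nr1d2 at 45.5 against 14.2 CPM, a ratio of 3.21 (2.05 to 5.16). Per1 had a ratio of 1.05 in pericyte and 1.80 in smooth muscle barcodes. Among the 107 and 33 smooth muscle barcodes with under 3 UMIs of every other cell type's list, 1 clock gene had the counts to be tested and it was not called. Among all members and genes with at least 200 counts, 1 clock gene (Nr1d1) was called higher.

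The start-site windows of clock genes were read for the E-box CACGTG and the D-box TTATGTAA, the letters bound by the activators and by the Dbp family. Windows were available for 14 of 16 clock genes. The E-box was in 5 of the 14 (Bhlhe41, Ciart, Cry1, Per1 and Tef), against 1978 of 32851 windows (6.02%), and the D-box in 1 (Per3), against 269 windows (0.819%), in both cases on either strand. A gene counted if any of its windows held the motif, so list shares and the shares of all windows are in unlike units. By gene, the E-box was also in 4 of 18 immediate early, 3 of 22 cytoskeleton and adhesion and 0 of 19 contractile genes. The 3 stretches below come from genes called higher in the early library, with the motif in capitals. They lie at chr11:69098753-69098818 on the plus strand, chr15:81802516-81802581 on the plus strand and chr4:151044786-151044900 on the minus strand.
Per1: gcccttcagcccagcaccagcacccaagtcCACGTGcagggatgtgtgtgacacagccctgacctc
Tef: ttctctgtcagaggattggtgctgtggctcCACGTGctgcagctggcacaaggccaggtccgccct
Per3: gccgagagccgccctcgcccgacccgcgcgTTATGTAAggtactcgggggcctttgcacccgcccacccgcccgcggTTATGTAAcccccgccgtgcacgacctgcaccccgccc
Cry1, whose window also held an E-box, was not called, so the motif did not go with the call in every gene.

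**Figure D2:**
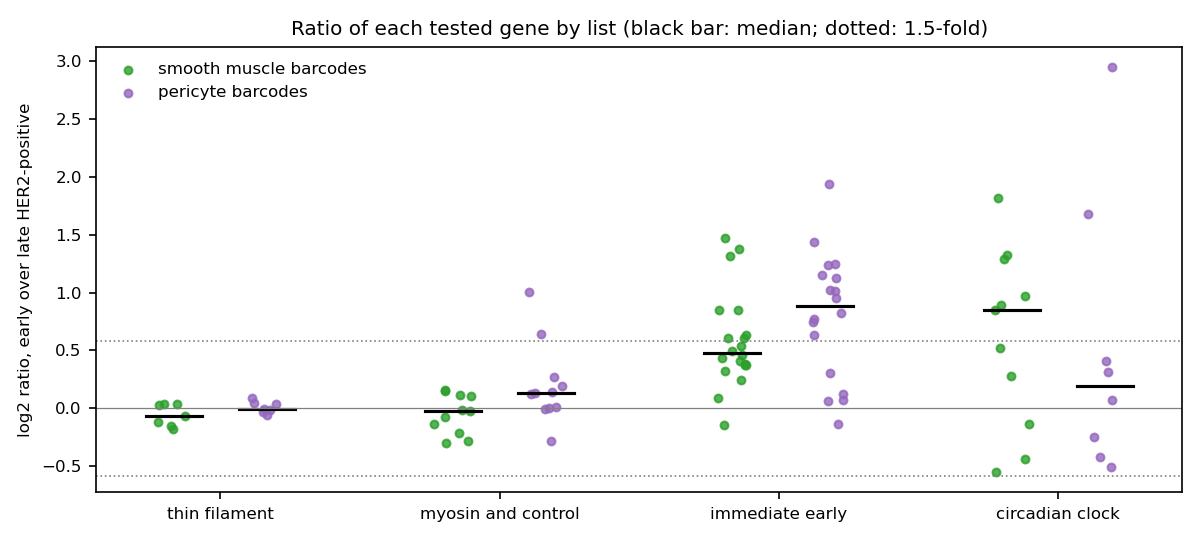
Log2 ratio of early over late HER2-positive for each tested gene of 4 lists, in smooth muscle and pericyte barcodes, with medians as black bars and 1.5-fold as dotted lines. Contractile genes of smooth muscle barcodes lie within the dotted lines, and immediate early genes have medians of 0.48 and 0.89.

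Genes with the widest ratios between stages were often held by single barcodes. Among the 10 lowest ratios, all 2066 counts of skeletal alpha-actin, Acta1, in the late library lay in 1 barcode of 4129 UMIs, which also held 79 UMIs of Acta2, and Eef1a2 lay in 1 barcode as well. The milk and secretory genes Csn3, Csn1s1, Wfdc18 and Lcn2, together with Trf, Tuba8 and Hist2h4, had 84.3% to 98.8% of their late counts in 1 barcode each. Tcf21 completed the 10. Among the 10 highest, the airway and antigen-presentation genes Scgb1a1, Scgb3a2, Cd74, H2-Aa and H2-Ab1 had 84.9% to 97.3% of their early counts in 1 barcode each, and Dcn 85.6%. Fabp5 stood at 53.2, 107 and 21.2 CPM, Wfdc2 at 0, 122 and 24.3 CPM and Grp at 277, 67.6 and 14.1 CPM.

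Genes spread over cells gave a narrower range. With no more than 10% of the pair's counts in 1 cell, a limit set after values were seen, the 10 lowest genes had ratios from 0.300 to 0.464. These were Tcf21, Arhgef10l, Snrpf, Ndufa1, Acyp2, Ost4, Kirrel, Myadm, Lox and Usmg5. Myadm, a membrane protein gene of myeloid and mural cells, stood at 74.5, 117 and 268 CPM, a ratio of 0.438 (0.370 to 0.519). The highest ran from 1.88 to 2.78 and were Gadd45b, Atf3, Ier3, Igfbp4, Klf4, Sdhaf1, Sftpb, Arl4d, Ccdc85b and Pelo. Sftpb, a surfactant gene, stood at 0, 96.2 and 46.3 CPM, and its level in barcodes of 1 to 100 UMIs was 262, 3552 and 4405 CPM. Among barcodes with under 3 UMIs of every other cell type's list the log2 ratios of Sftpb and Pelo turned to -0.065 and -0.79, from 11 and 5 and from 8 and 6 counts, and that of Lox was -0.032.

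Smooth muscle barcodes varied along an axis of pericyte genes. After thinning, 9, 131 and 70 members held at least 2 UMIs over 7 pericyte genes, and 29, 325 and 147 held fewer, a division made after values were seen. Members with pericyte genes were shallower, with median UMIs of 4003, 3668 and 4338 against 5000, 4356 and 5795. Gap43, a growth-associated protein gene outside the list, stood at 559.7 against 6.57, 168 against 3.30 and 288 against 4.32 CPM. Hsd11b1, which regenerates active glucocorticoid, had ratios of 12.2, 23.1 and 15.7 with over without pericyte genes, and Lipg, endothelial lipase, 51.1, 11.7 and 28.8. The further genes named by the same rule as higher were Adap2, Vtn, Adamtsl3, the angiotensin receptor gene Agtr1a and the adenosine receptor gene Adora1. Notch3 had ratios of 3.84, 2.10 and 1.95, Gucy1a3 3.30, 2.51 and 3.01, Gucy1b3 6.27, 2.93 and 2.87 and Rgs5, a G-protein regulator of mural cells, 4.66, 4.13 and 10.2. Each of these was higher in all 3 libraries.

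Contractile genes lay on the opposite side of that axis. With over without pericyte genes, the ratios of Tagln were 0.353, 0.598 and 0.537, of Tpm2 0.327, 0.539 and 0.497 and of Myl9 0.421, 0.555 and 0.504. Actc1 was listed at 0 in the 9 HER2-negative members with pericyte genes and had ratios of 0.280 and 0.390 in the HER2-positive libraries. Genes of the rule chose the members and are given as a description only. Acta2 stood at 3302 against 10357, 7561 against 12988 and 7105 against 13402 CPM with against without pericyte genes. Myh11 had ratios of 0.423, 0.512 and 0.465 and Cnn1, calponin, 0.0526, 0.262 and 0.335. Desmin was nearer to level, at 0.714, 0.796 and 0.683, and elastin, Eln, was at 1.38, 0.887 and 0.928. Plin4, Ptgis, Enah and Sh3bgr, all listed at 0 in those 9 members, were lowest beside Tspan8, Aqp5, Ager and Sec14l3, which alveolar or airway epithelium expresses. Members with both sets of genes were present in every library, so the rule's limits joined barcodes along this axis.

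**Figure D3:**
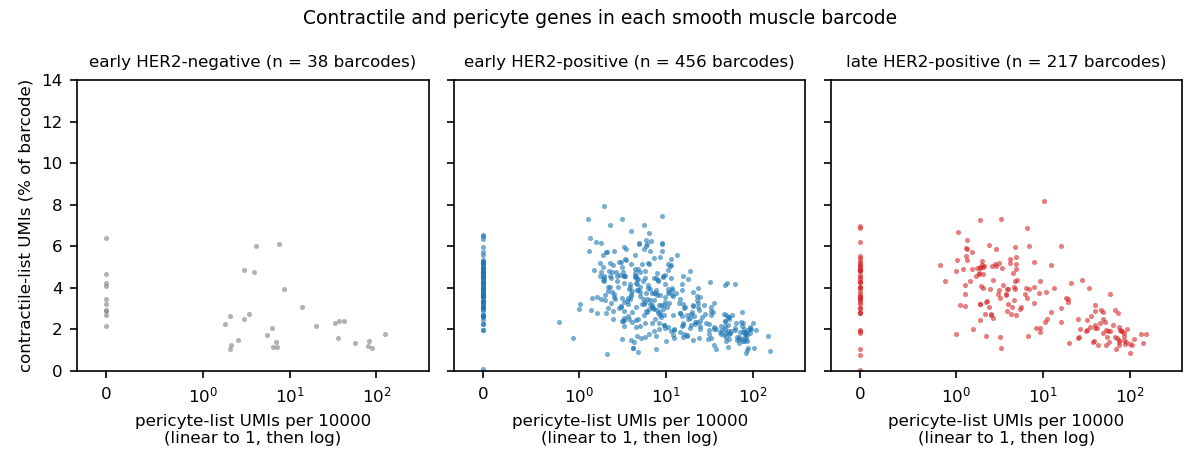
Each point is 1 smooth muscle barcode, with its UMIs of 7 pericyte genes per 10000 on the x axis (linear to 1, then log) and the share of its UMIs on contractile genes outside the rule on the y axis, in a panel per library. Medians of the y axis are 2.41%, 3.37% and 3.50%, and members with many pericyte-gene UMIs lie mostly at low contractile shares.

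**Figure D4:**
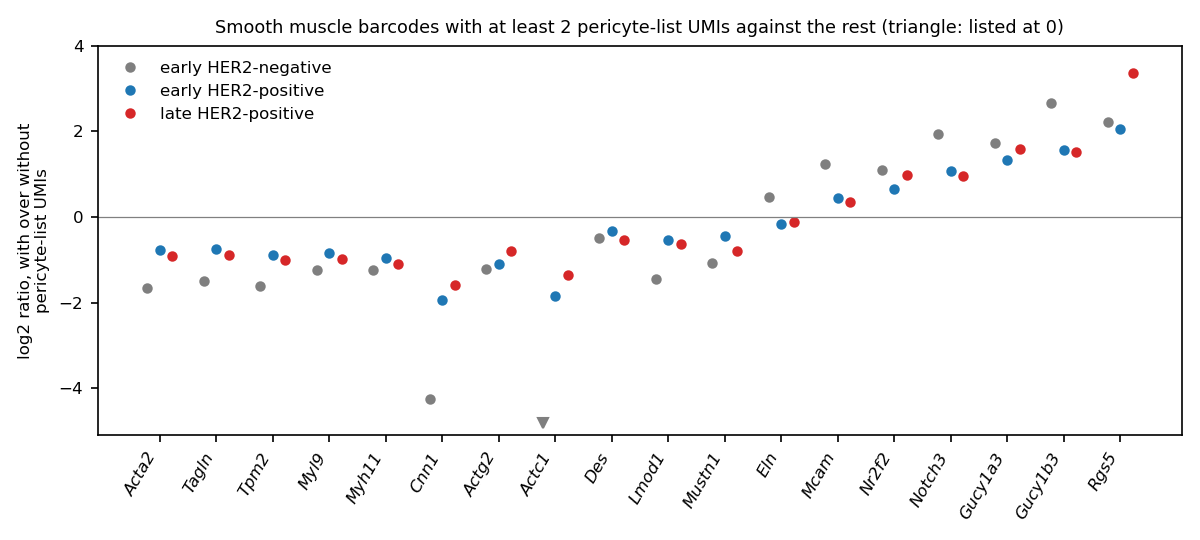
Log2 ratio of the level in members with at least 2 pericyte-list UMIs over the level in the others, per gene and library, with triangles where the gene was listed at 0 in the first class. Contractile genes lie below 0 in all 3 libraries and Notch3, Gucy1a3, Gucy1b3 and Rgs5 above. Acta2, Myh11, Cnn1, Actg2 and Lmod1 chose the members and are shown as a description only.

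A second division was made by Actg2, the enteric form of smooth muscle actin, and it overlapped the pericyte axis. Actg2 was found in 50%, 48.9% and 47.9% of thinned members, 19, 223 and 104 barcodes. Actc1 was higher where Actg2 was found, at 1297 against 519.5, 1524 against 709 and 2156 against 540.1 CPM, and so was Ptgis, prostacyclin synthase, with ratios of 2.51, 2.33 and 3.06. Ednrb had ratios of 2.47, 1.97 and 2.48. Acta2, a gene of the rule given as a description only, had ratios of 1.60, 1.58 and 1.87. Actg2 counts towards the rule's limit of 4 UMIs, so members with and without it could pass that limit through unlike genes. Dpysl3, Sh3bgr, Hspb6, Cdr2 and the sarcoglycan gene Sgca were the other genes named as higher, with ratios in the HER2-positive libraries, early then late, of 2.18 and 3.03, 2.001 and 2.41, 1.96 and 3.03, 2.07 and 2.08 and 2.26 and 3.97. The genes named as lower were Spp1, Vtn, Aqp5, Vegfa, Krt18, Hsd11b1, Gap43 and Adap2, by their ratios in the HER2-positive libraries. Gap43 had ratios of 0.161, 0.234 and 0.127 in the 3 libraries and Adap2 0.690, 0.258 and 0.0707. In the HER2-negative library Vtn was level and Hsd11b1 higher with Actg2, with ratios of 0.966, 0.178 and 0.0545 and 1.41, 0.168 and 0.198 in the 3 libraries, the first of each from 7 against 7 and 16 against 11 counts. Spp1, osteopontin, had 69.5% of its early and 61.9% of its late counts in 1 barcode each. In the HER2-positive libraries Gap43, Hsd11b1, Adap2 and Vtn were thus at opposite ends of the pericyte and Actg2 divisions, which are not independent of each other. With over without Actg2, the pericyte-list genes Higd1b and Cox4i2 had ratios of 0.725, 0.262 and 0.102 and 0.518, 0.400 and 0.162. Rgs5 had ratios of 0.996, 0.491 and 0.172, so it was level in the HER2-negative library. Tagln was higher with Actg2, at 1.71, 1.42 and 1.81, and so was Tpm2, at 1.41, 1.57 and 1.94. Depth differed too, with median UMIs of 4872, 4417 and 6116 against 4980, 3829 and 4700.

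The listed genes could not show whether vascular and airway smooth muscle cells separate. After thinning, 33, 441 and 208 members (86.8%, 96.7% and 95.9%) held a UMI of the vascular list, 25, 390 and 184 held UMIs of both lists, and 1, 12 and 7 held airway genes only. Des and Actc1 made up most of the airway list's UMIs, and Des was found in 63.2%, 83.1% and 80.2% of thinned members. UMIs of both lists in 1 member were therefore likely whatever its type. Lgr6 was found in 7.89%, 4.61% and 8.29% of members before thinning and in 0, 1 and 2 members after it. The vascular gene Mustn1 stood at 1532, 2100.4 and 1893 CPM and was found in 63.2%, 75.9% and 74.2% of thinned members, against 2.26%, 3.42% and 2.73% of endothelial barcodes.

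The HER2-negative members carried several fibroblast and matrix genes at higher levels than the early HER2-positive members. Fbln1 and Fbln5, fibulins of elastic fibres, stood at 207, 10.8 and 0.785 and 106, 20.2 and 18.1 CPM, with HER2-negative over early HER2-positive ratios of 19.1 (11.1 to 33.9) and 5.26 (2.92 to 9.19), and Mfap4, a microfibril protein, at 239, 43.4 and 39.3 CPM. In the HER2-negative library 1 barcode held 20.5% of the Fbln1 and 40.0% of the Fbln5 counts. Fmo2, a lung monooxygenase, had levels of 628, 157 and 216 CPM and a ratio of 3.99 (3.202 to 4.94). Grp, Mt1, Atp5k, Dcn and Pnmt were also among the 10 highest, the last with 93.5% of its counts in 1 barcode. Igfbp3 also stood high, at 9.38 (4.89 to 17.9). With at most 10% of the counts in 1 cell, the highest were Atp5k, Fmo2, Mfap5, Htra3, Eif3j2, Lmo4, Cd302, Cpe, Igfbp4 and Gpm6b, with ratios from 3.23 to 4.59. The log2 ratio of Igfbp4 turned to -0.91, from 1 and 24 counts, among barcodes with under 3 UMIs of every other cell type's list. Of the fibroblast list 1 of 5 tested genes, Dcn, was called higher, beside 10.7% of all genes, with 44.9% of its HER2-negative and 85.6% of its early HER2-positive counts in 1 barcode each. Fibroblast barcodes of the HER2-negative library carried Fbln1 at 444 CPM, and the part of fibroblast RNA in these levels was not tested.

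Genes lower in the HER2-negative members included Bdnf, brain-derived neurotrophic factor, which vessel walls secrete. It stood at 26.6, 138 and 236 CPM, a HER2-negative over early HER2-positive ratio of 0.193 (0.0621 to 0.455), and its early over late ratio was 0.586 (0.496 to 0.692). The others spread over cells were Ube2a, Aif1l, Pcgf5, Ngrn, the BMP mediator Smad1, Cited2, Bmp1, Fdx1 and Klc1, with ratios from 0.105 to 0.202. The 10 lowest over all genes were Alcam, Aqp5, Cd74, Chchd10, Cxcl15, Cyp2b10, H2-Aa, Igfbp6, Krt18 and Krt8. All 10 were listed at 0 in the HER2-negative members, where 3 counts correspond to 16.0 CPM, so Cd74 was at least 13.5-fold and Chchd10 at least 4.82-fold lower. A single early HER2-positive barcode held 86.2% of the Cd74 and 26.3% of the Chchd10 counts, and without it these bounds were 1.87-fold and 3.57-fold. For H2-Aa, with 84.9% of its counts in 1 barcode, the early level without it was 7.94 CPM, below the level of 3 counts. Most of them mark epithelium or antigen-presenting cells.

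RNA of other cell types was carried at unequal levels. Alveolar type 2 genes other than Sftpc summed to 42.6, 534 and 394 CPM over 7 genes, against 2490, 34648 and 41676 CPM in barcodes of 1 to 100 UMIs, and 6 of the 7 were listed at 0 in the HER2-negative members. Alveolar type 1 genes summed to 95.7, 1154 and 858 CPM. Club airway genes summed to 5.32, 2380 and 156 CPM, with 94.2% of the early counts in 1 barcode. Leukocyte genes summed to 0, 238 and 16.5 CPM, and Ptprc, which encodes CD45, was listed at 0 in all 3 libraries. Members with at least 10 UMIs over 1 list of an epithelial class, leukocytes, mesothelium or glia numbered 0, 26 and 8. Without them 326 genes were called higher and 247 lower between stages in place of 420 and 262, the contractile lists again gave 0 calls, and the immediate early and clock lists gave 9 and 7 higher.

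The HER2-positive label was set beside mammary genes in the same members. Erbb2, the mouse gene for HER2, stood at 16.0, 32.1 and 30.6 CPM and was found in 5.26%, 2.85% and 2.30% of thinned members, against 2.20%, 2.28% and 1.26% of endothelial barcodes. Mammary epithelial genes summed to 69.2, 220 and 836 CPM over 10 genes, with 86.3% of the late counts in 1 barcode, and Epcam stood at 0, 35.5 and 66.8 CPM. Cell division genes were near the limit of detection, with Pcna at 26.6, 14.3 and 18.1 CPM and 1 of 13 genes reaching 50 counts. The labelled breast cancer cells of both HER2-positive libraries thus included barcodes that met the smooth muscle rule and that carried few mammary transcripts.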

How the data were processed

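The deposited matrices hold unnormalised counts of UMIs per gene and barcode, for 27998 genes and 6794880 barcodes in each of 3 libraries, and are not filtered to cells. Per the file headers, software 3.1.0 wrote them, and the submitters' processing notes name mm10 as the build; no aligner or annotation is given in the sources used here. The HER2-negative library held 25610135 UMIs in all, the early HER2-positive 49248126 and the late 54961019. Symbols came from the files, and 56 duplicated symbols were left out. Coordinates came from GENCODE M21 (GRCm38), which held 27645 of the 27998 identifiers, and promoter windows from RefSeq (GRCm38.p6).

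Raw counts were summed over members and scaled to CPM, with exact Poisson intervals for levels, exact conditional intervals for ratios and Clopper-Pearson intervals for shares, all at 95%. PCR duplicates are collapsed by UMI, and intervals cover counting error only, understating it where most counts lie in few cells. A count of 0 was bounded by 3 counts. Shares of cells were taken after thinning to 1000 UMIs, which left out no member. No doublet caller was run. Members holding at least 10 UMIs over 1 list of an epithelial class, leukocytes, mesothelium or glia (mixed barcodes) were removed as an alternative. Pericyte, fibroblast and endothelial lists did not count towards this limit. Endothelial, pericyte and fibroblast barcodes passed the same depth limits and were defined by markers. Python 3.11.15, numpy 2.4.6, scipy 1.17.1 and pandas 2.3.3 were used, and the ratio and its call were tested on simulated data. The simulation drew Poisson counts and changed only well-counted genes, by more than the call's fold. It therefore does not cover calls near the count minimum or genes held by few cells.

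The members, gene lists and named-gene rule were chosen with earlier results of these data known. Named genes, leaving out predicted models, ribosomal protein and mitochondrial genes and those of the rule, were the 20 highest ratios over other kept barcodes (at least 50 CPM in each library), the 10 highest and 10 lowest per pair of libraries, the 8 and 8 in the Actg2 division, all contractile genes, and up to 4 abundant and 4 far-moving genes per list. Genes of the pericyte division, those with at most 10% of counts in 1 cell, and Bdnf, Mcam, Cxcl1 and Igfbp3 beyond that rule's order, were chosen after values were seen. Some genes that the rule named are not reported here. Alternatives covered depth, mitochondrial share, marker limits, count minimum, fold, scaling, cell weights, free RNA (scaled by Sftpc, which the rule itself limits) and removal of the leading cell.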

Additional observations from a re-analysis of the deposited data

Results flagged for a closer look

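In the early HER2-positive library, 4 barcodes of at least 500 and under 1000 UMIs met every marker limit of the smooth muscle rule, and lay outside the comparisons because of their depth. No such barcode was found in the early HER2-negative or the late HER2-positive library, where the counts were 0 and 0.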

How the results depend on the processing

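No paired analysis was possible because each group has 1 library. The contractile lists gave 0 calls in either direction between the HER2-positive libraries under every alternative run. Leaving out barcodes with 3 UMIs of another cell type left 6, 107 and 33 members in place of 38, 456 and 217. Early over late genes called higher then numbered 157 and lower 111 (420 and 262 otherwise), immediate early genes higher 2 in place of 8 and clock genes higher 0 in place of 6, with 1 clock gene tested in place of 11. HER2-negative over early HER2-positive genes called higher then numbered 186 and lower 367 (645 and 1033 otherwise). Count minimums moved the early over late counts to 977 and 532 with at least 20 counts, 49 and 52 with at least 200, and 3601 and 2112 with none. For the early libraries they moved to 1308 and 2040, 111 and 184, and 2486 and 5827. A fold of 2 gave 96 and 50, and 161 and 439, with 3 immediate early and 3 clock genes higher. Without the leading cell of each gene, the early libraries gave 304 and 1884. At least 8 UMIs of the 4 smooth muscle genes gave 5 immediate early genes. Clock genes called higher fell to 1 with at least 200 counts. No count minimum called 2 immediate early and 1 clock gene lower, and 1 clock gene was lower under 10% mitochondrial, under trimmed-mean scaling and without mixed barcodes.

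Without barcodes holding 3 UMIs of another cell type, these early over late log2 ratios reversed, to 0.020 for Chrm2, 0.12 for Hist2h4, -0.068 for Ier2, -0.20 for Kcnj8, -0.071 for Klf2, -0.79 for Pelo, -0.67 for Scgb1a1, -0.065 for Sftpb, 0.12 for Tcf21 and -0.47 for Wfdc2. HER2-negative over early HER2-positive ratios reversed to -0.083 for Atf3, 0.69 for Ier3 and -0.91 for Igfbp4. Without mixed barcodes Hist2h4 was at 0.10, Scgb1a1 at -0.67 and Sftpb at -0.61. Without its leading cell Scgb1a1 was at -0.55 and, between the early libraries, Pnmt at -0.61. With at least 8 UMIs of the smooth muscle genes Tuba8 was at 0.40. Beyond fewer cells and counts, the cause was not tested. Scaling moved the median early over late ratio by 0.025 to 0.036 (log2). Of the other values, 1671 kept their reading and 176 moved. The 38 HER2-negative barcodes limit precision most.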

Other observations

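Among 9 tested genes of interferon response and antigen display, 1 was called between the HER2-positive libraries, beside 5.70% of all genes higher and 3.56% lower. B2m, the light chain of class I molecules, stood at 250.01, 276 and 379 CPM, with an early over late ratio of 0.727 (0.642 to 0.823). Bst2 and Gbp2 stood at 128, 95.2 and 115 and 63.8, 108 and 115 CPM. Isg15, a ubiquitin-like modifier, was listed at 0 in the HER2-negative members and stood at 22.7 and 36.9 CPM in the others, with 44.7% of the late counts in 1 barcode.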
